A study of Homo sapiens with 4 samples.

Results

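The AP-1 and EGR immediate early factors were followed as 10 genes chosen by name, FOS, FOSB, JUN, JUNB, JUND, ATF3, EGR1, EGR2, EGR3 and IER2, out of 56809 gene rows in the count table. Each name matched 1 row. Poly(A) RNA had been sequenced from NCI-H929, an established human multiple myeloma line that expressed the nuclease Cas9, in 2 BCL7A knockout (KO) libraries and 2 control libraries. The KO cells carried a doxycycline-inducible BCL7A KO construct and the control cells a control construct, although the sample titles and the genotype label call the controls wild type. Both groups had puromycin selection for 3 days and doxycycline at 0.5 ug/ml for 24 h. The labels name no clone, guide or separate culture. The p-values therefore cover library-to-library spread alone, and that spread may be technical.

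Immediate early genes are switched on within minutes of a signal, without new protein synthesis, and their mRNAs are short-lived. Growth factor and stress kinases act on factors already bound at their promoters, such as SRF, ELK and CREB proteins. AP-1 is a dimer of basic leucine zipper (bZIP) proteins. JUN proteins pair with each other or with FOS proteins, whereas FOS proteins need a JUN partner. EGR proteins are zinc finger factors that bind GC-rich sites and are held in check by the corepressors NAB1 and NAB2. In myeloma and other B lineage cells, these factors connect RAS, cytokine and stress signals to transcription.

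The promoters of FOS, FOSB, JUNB and JUND, whose families split between higher and lower members, are shown beside that of EGR1, which carries the serum response elements that are textbook features of the class. Each sequence is the 250 bases before the RefSeq start (GRCh38.p14), 5′ to 3′ on the strand of the gene, with matches to the motifs searched in capitals.
FOSB promoter (chr19:45467746-45467995, plus strand): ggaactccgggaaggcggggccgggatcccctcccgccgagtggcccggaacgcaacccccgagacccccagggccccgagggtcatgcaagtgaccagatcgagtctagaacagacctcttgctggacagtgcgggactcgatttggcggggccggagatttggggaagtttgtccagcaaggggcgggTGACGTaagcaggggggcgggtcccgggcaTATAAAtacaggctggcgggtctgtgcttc
FOS promoter (chr14:75278578-75278827, plus strand): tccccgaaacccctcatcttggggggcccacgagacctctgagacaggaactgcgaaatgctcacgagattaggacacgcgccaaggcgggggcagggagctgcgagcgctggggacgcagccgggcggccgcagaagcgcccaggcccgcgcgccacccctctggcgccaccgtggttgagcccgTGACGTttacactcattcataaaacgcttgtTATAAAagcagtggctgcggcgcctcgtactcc
JUNB promoter (chr19:12791236-12791485, plus strand): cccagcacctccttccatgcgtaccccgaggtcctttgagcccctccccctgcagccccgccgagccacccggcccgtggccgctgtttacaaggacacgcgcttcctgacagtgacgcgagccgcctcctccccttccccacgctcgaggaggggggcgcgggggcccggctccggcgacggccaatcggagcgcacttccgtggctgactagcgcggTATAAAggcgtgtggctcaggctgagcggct
JUND promoter (chr19:18281623-18281872, minus strand): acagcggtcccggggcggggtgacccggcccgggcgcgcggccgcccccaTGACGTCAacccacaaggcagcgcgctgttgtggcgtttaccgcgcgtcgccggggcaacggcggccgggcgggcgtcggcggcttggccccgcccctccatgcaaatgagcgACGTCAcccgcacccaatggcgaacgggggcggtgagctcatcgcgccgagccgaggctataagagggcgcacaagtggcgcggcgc
EGR1 promoter (chr5:138465229-138465478, plus strand): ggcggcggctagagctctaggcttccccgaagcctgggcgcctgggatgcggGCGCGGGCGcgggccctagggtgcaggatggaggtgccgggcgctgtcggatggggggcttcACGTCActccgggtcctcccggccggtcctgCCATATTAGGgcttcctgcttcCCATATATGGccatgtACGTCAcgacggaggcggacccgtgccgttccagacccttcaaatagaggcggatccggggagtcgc

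RefSeq promoter windows of 9 of the 10 genes were searched, with 12 starts in all. EGR3, on chromosome 8, was left out of this search. The motifs were searched on both strands in the 250 bases before each start. The CArG box, the core of the serum response element to which SRF binds, matched at 2 places in EGR1, beginning 105 and 83 bases upstream of the start, and at 1 start of EGR2. It matched 1.16% of the 35116 promoters in the table. The cAMP response element TGACGTCA, bound by CREB and ATF proteins, matched the JUND promoter and 1.65% of all promoters. The shorter TGACGT, which lies within that element and was added after the letters had been seen, matched FOS, FOSB, EGR1, JUND and 1 start of EGR2, against 7.10% of all promoters. TGACNTCA, also added then and also covering the JUND match, was found in JUN and at 1 start of ATF3, against 6.87% of all. TATAAA began 33, 30 and 31 bases upstream of the starts of FOS, FOSB and JUNB and 230 bases upstream of 1 start of ATF3, and matched 10.7% of all promoters. The EGR motif GCGNGGGCG matched EGR1 (8.41% of all), and the AP-1 motif TGANTCA matched none of these 12 windows (6.57% of all). A match describes letters and shows no binding. Sites more than 250 bases upstream of a start were not searched, so a gene without a match here may have one there. IER2 had no match to any of these motifs in its window. GENCODE places the upstream end of JUN farther from the coding sequence than RefSeq does, so the JUN window lies inside a transcript that GENCODE annotates and is not printed. The GENCODE start of FOS likewise falls within its RefSeq window.

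Gene counts summed to between 38671744 and 40799624 in the KO libraries, against 17567202 to 20153596 in control. The KO group was therefore the more deeply sequenced. BCL7A, the targeted gene, was at 1.31 and 1.19 CPM in KO, against 42.9 and 45.7 CPM in control. CPM is a gene's count as a rate of the library's total, after correction of that total with a TMM factor. The cells are labelled as B lymphocytes. All 9 plasma cell markers were present in all libraries and higher in the KO libraries, where they summed to between 11953 and 11965 CPM, against 6697 to 6757 CPM in control. Of 9 mature B cell markers, 7 were tested, 1 was higher and 5 were lower, with sums of 35.6 and 38.8 CPM in the KO libraries and 413 and 428 CPM in the control libraries. The 5 T cell markers summed to 14.67 to 14.98 CPM in KO and 25.5 to 26.5 CPM in control, mostly CD3E, and 2 of 3 tested were lower, with CD3D at 0 in every library. The 5 epithelial markers summed to 11.99 to 12.6 CPM in KO and 66.1 to 70.9 CPM in control, with 1 of 4 tested higher and 2 lower, EPCAM at 0 counts in both KO libraries and KRT19 at 0 in every library. The myeloid, erythroid and fibroblast markers summed to at most 0.940, 0.513 and 0.399 CPM in a KO library. In a control library they summed to at most 1.53, 4.42 and 10.9 CPM. In each list 2 genes were tested, and MPO, a myeloid marker, was at 0 in every library. The part of these differences in the results below was not tested.

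Across the table, 13629 of 17885 tested genes differed between KO and control at an adjusted p below 0.05 (76.2%), 36.4% higher and 39.8% lower in the KO libraries. Against this background, 3 of the 10 genes were higher (FOSB, JUNB and IER2) and 5 were lower (JUN, JUND, FOS, ATF3 and EGR3). EGR1 did not pass, and EGR2 was too low to be tested. EGR3 passed the filter on low counts through the control libraries, where it was higher. A share of called genes near the background is no result about these genes, nor about any other list or neighbourhood here. Their directions and sizes differed within each family, and 1 gene, FOSB, changed more than 2-fold upward while JUN and EGR3 did so downward. In bulk RNA, less RNA per cell and fewer cells that express a gene cannot be told apart.

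**Figure D1:**
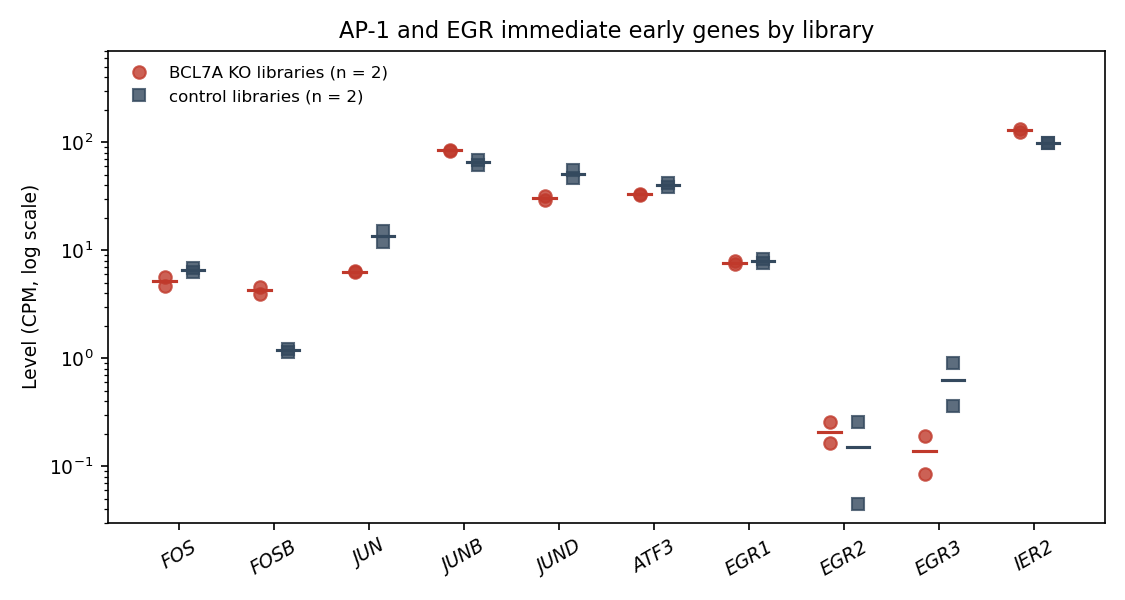
Level of each AP-1 and EGR factor gene in CPM on a log axis, with circles for the 2 BCL7A KO libraries, squares for the 2 control libraries and a line at each group mean. The groups stand farthest apart for FOSB, higher in KO, and for JUN and EGR3, lower in KO, while EGR1 and EGR2 overlap.

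The FOS genes encode the AP-1 subunits that cannot pair among themselves. FOSB (chromosome 19, 45467995 to 45475179, plus strand) was at 3.96 and 4.57 CPM in the KO libraries, against 1.14 and 1.22 CPM in the control libraries. Both KO libraries were above both control libraries. The log2 fold change, KO over control, was 1.85 (SE 0.22, adjusted p = 2.19e-08), or 3.61-fold. FOS (chromosome 14, 75278774 to 75282230, plus strand), the founding member, was at 4.64 and 5.60 CPM in the KO libraries and at 6.21 and 6.76 CPM in the control libraries. The groups did not overlap, as for 87.4% of tested genes. The difference passed the threshold narrowly (log2 fold change -0.34, SE 0.15, adjusted p = 0.0421) and failed it under 7 of 13 alternative fits. Without KO replicate 1 it was -0.20 (adjusted p = 0.367), and without control replicate 2 it was -0.29 (adjusted p = 0.143).

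The ratio of FOSB to FOS counts in a library does not depend on how libraries are scaled. It was 0.853 and 0.816 in the KO libraries and 0.183 and 0.180 in the control libraries, a 4.59-fold difference between the group means. ERCC1, a DNA repair gene on the opposite strand, spans the FOSB locus, but their exons do not overlap in GENCODE 29. ERCC1 went the other way, at 27.6 CPM in KO and 35.2 CPM in control (log2 fold change -0.35, SE 0.06). At the most, FOSB had 169 counts in a KO library and 27 in a control library.

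The 3 JUN genes encode the subunits that every AP-1 dimer with a FOS protein needs. JUN (chromosome 1, 58780788 to 58784327, minus strand), the strongest activator among them, was at 6.21 and 6.39 CPM in the KO libraries, against 11.9 and 15.1 CPM in the control libraries. The 2 control libraries differed more from each other than the KO libraries did, yet both lay above them. Its log2 fold change was -1.11 (SE 0.12, adjusted p = 6.67e-09). JUND (chromosome 19, 18279760 to 18281622, minus strand), which is present in resting cells and restrains growth in several cell types, was at 29.4 and 31.7 CPM in the KO libraries and at 46.8 and 55.1 CPM in the control libraries. It was lower in both KO libraries, with a log2 fold change of -0.74 (SE 0.07, adjusted p = 1.57e-08). JUNB (chromosome 19, 12791496 to 12793315, plus strand), which can oppose JUN, was at 84.5 and 83.3 CPM in the KO libraries and at 61.7 and 68.1 CPM in the control libraries. It was higher in both, by 0.37 on the log2 scale (SE 0.04, adjusted p = 2.69e-08).

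JUNB and JUN thus moved apart by a ratio that needs no library scaling. There were 13.6 and 13.0 JUNB counts per JUN count in the KO libraries, against 5.19 and 4.50 in the control libraries. For JUNB over JUND the ratios were 2.88 and 2.63 in the KO libraries, against 1.32 and 1.24 in the control libraries. These ratios did not overlap between the groups, and no test was run on them. The exons of JUNB overlap those of HOOK2 on the opposite strand, and no source used here gives the strand setting of the counting. Reads of the 2 genes may therefore be mixed. HOOK2 was at 18.4 CPM in KO and 24.5 CPM in control and was lower in the KO libraries (log2 fold change -0.41, SE 0.07).

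**Figure D2:**
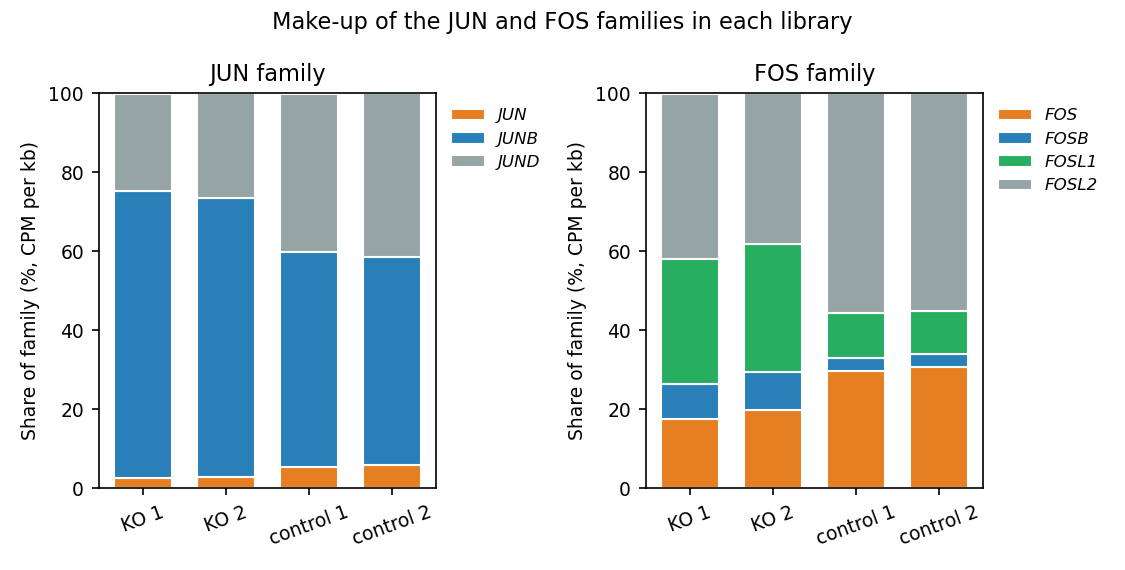
Share of each gene in the summed level of the JUN family (left) and of the FOS family (right), in percent of CPM per kb of annotated exon, with 1 bar per library. JUNB makes up 70.9% to 72.6% of the JUN family in the KO libraries and 52.5% to 54.4% in the control libraries, and FOSB and FOSL1 are wider bands in the KO libraries.

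Per kb of annotated exon, JUNB made up 72.6% and 70.9% of the JUN family in the KO libraries, against 54.4% and 52.5% in the control libraries. JUND made up 24.6% and 26.3% in KO, against 40.2% and 41.5% in control. JUN itself was a small part, 2.74% and 2.79% in KO and 5.39% and 5.999% in control. In the FOS family, FOS took 17.7% and 19.98% in KO and 29.8% and 30.8% in control, while FOSB took 8.80% and 9.51% in KO and 3.18% and 3.23% in control. FOSL1 took 31.5% and 32.5% in KO and 11.5% and 10.9% in control, and FOSL2 held the largest share in every library, 42.01% and 38.04% in KO and 55.6% and 55.02% in control. These shares rest on gene lengths from the annotation and not on the isoforms the cells used.

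ATF3 (chromosome 1, 212565334 to 212620777, plus strand) encodes a stress-induced bZIP factor that pairs with JUN proteins and lies downstream of ATF4. It was at 32.8 and 32.7 CPM in the KO libraries, against 41.6 and 38.7 CPM in control. The KO libraries were nearly equal and below both controls (log2 fold change -0.29, SE 0.06, adjusted p = 5.01e-05). Among 8 ATF4 pathway genes, 5 were higher, 2 were lower and 1 was not called. The share called was 87.5%, against 76.2% of all tested genes. The median log2 fold change was 0.19, against -0.06 over all tested genes. TRIB3, a pseudokinase gene induced by ATF4, was at 55.0 CPM in KO and 186 CPM in control (log2 fold change -1.76, SE 0.04). DDIT3, which encodes the stress factor CHOP, fell to 33.4 CPM in KO, against 85.5 CPM in control. DDIT4 rose to 246 CPM in KO, against 129 CPM in control, and SESN2 to 133 CPM in KO, against 93.5 CPM in control. Both encode inhibitors of mTORC1 signalling.

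IER2 (chromosome 19, 13150415 to 13154908, plus strand), a small nuclear protein gene induced by serum, was at 132 and 125 CPM in the KO libraries, against 98.1 and 98.9 CPM in the control libraries. It was higher in both KO libraries (log2 fold change 0.38, SE 0.04, adjusted p = 2.60e-10), a change of the same sign and nearly the size of that of JUNB. An antisense gene, AC011446.2, overlaps its exons but held at most 13 counts in a library. The TMM factors were 0.909 and 0.906 in the KO libraries and 1.102 and 1.103 in the control libraries. They raise KO CPM against control CPM. No fit used library totals without such factors. Their part in small changes such as those of IER2, JUNB and EGR1 was therefore not tested. With upper-quartile scaling the all-gene median shifted by -0.13. The changes of IER2 and JUNB ranged from 0.25 to 0.47 and from 0.23 to 0.45 over the 13 alternative fits and passed in each of them.

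EGR1 (chromosome 5, 138465490 to 138469315, plus strand), the most widely used marker of this response, was at 7.89 and 7.36 CPM in the KO libraries and at 7.66 and 8.25 CPM in the control libraries. The groups overlapped, and the log2 fold change was -0.06 (SE 0.13, adjusted p = 0.666). That does not show equal levels, and it changed sign, to 0.020, with no filter on low counts. EGR2 (chromosome 10, 62811996 to 62919900, minus strand), known for its role in myelination and in restraint of T cells, had 9 and 6 counts in the KO libraries and 5 and 1 counts in the control libraries. Its ratio of KO to control CPM was 1.44, with an exact 95% Clopper-Pearson counting interval of 0.528 to 4.53, so no difference was detectable at this depth. EGR3 (chromosome 8, 22687659 to 22693302, minus strand), which is induced through NFAT in lymphocytes, had 3 and 7 counts in the KO libraries and 7 and 20 counts in the control libraries. Its CPM were 0.0854 and 0.189 in KO, against 0.362 and 0.901 in control, and the log2 fold change was -2.18 (SE 0.62, adjusted p = 0.00256). Over the summed counts, 10 in KO and 27 in control, the ratio of CPM was 0.213 (95% counting interval 0.0922 to 0.455). The call was lost without KO replicate 1 (-1.72, adjusted p = 0.0778) and without control replicate 2 (-1.38, adjusted p = 0.188). The antisense gene AC055854.1 overlaps its exons and had 7 counts, all in control replicate 2. Intervals cover counting error only.

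**Figure D3:**
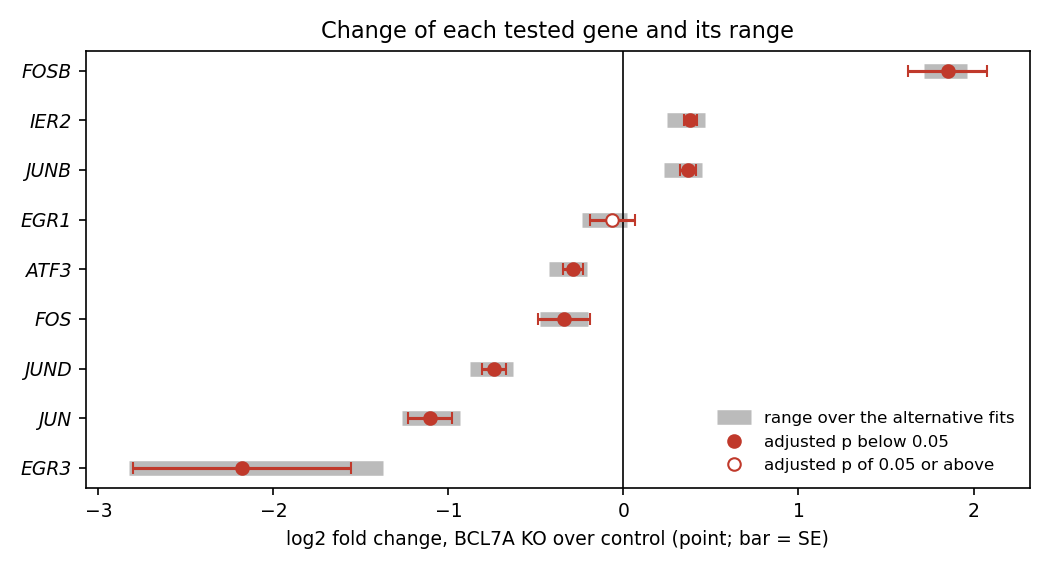
Log2 fold change, BCL7A KO over control, of the 9 tested genes (points; bars, SE), with grey bands for the range over the alternative fits and an open point where the adjusted p was 0.05 or above. FOSB lies at 1.85 and JUN at -1.11, and the bands of EGR1 and EGR3 run from -0.24 to 0.020 and from -2.83 to -1.38.

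To compare levels between genes, CPM were divided by the exon length in kb. In the KO libraries JUNB led with 46.1 ± 0.472 CPM per kb (SD, n = 2), followed by IER2 at 41.8 ± 1.71, JUND at 16.4 ± 0.896 and ATF3 at 8.11 ± 0.024 CPM per kb. In the control libraries the same 4 genes led in the same order, with JUNB at 35.7 ± 2.49, IER2 at 32.1 ± 0.185, JUND at 27.3 ± 3.16 and ATF3 at 9.93 ± 0.498 CPM per kb. JUND was thus close to IER2 in control and far below it in KO. Next in the KO libraries came EGR1 (2.43), JUN (1.78), FOS (1.58) and FOSB (0.768), and in the control libraries JUN (3.82), EGR1 (2.53), FOS (2.00) and FOSB (0.212). EGR2 and EGR3 were last in both groups, at 0.0567 and 0.0283 CPM per kb in KO and 0.0412 and 0.130 CPM per kb in control. The 2 libraries of neighbouring genes in this order did not overlap in either group, but EGR2 and EGR3 rest on at most 20 counts in a library. With the length of the longest transcript, the first 4 kept their order of means in both groups, while FOS passed JUN in KO and EGR1 in control. ATF3 depended most on the length among these 4. With the longest transcript it was at 15.6 ± 0.0468 CPM per kb in KO and 19.1 ± 0.956 CPM per kb in control, so that in KO it lay just under JUND, which was at 15.8 and 17.03 CPM per kb in the 2 libraries.

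Among 9 other AP-1 bZIP genes, 66.7% were called, against 76.2% of all tested genes. Of these 9, 1 was higher, 5 were lower and 3 were not called, with a median log2 fold change of -0.48. The 1 that rose was FOSL1, which encodes the FOS family subunit FRA-1, at 4.81 and 5.30 CPM in KO, against 1.40 CPM in both controls. Its log2 fold change was 1.85 (SE 0.21, adjusted p = 4.02e-09), equal to that of FOSB to 2 decimals. FOSL2, the fourth FOS gene, named after its values were seen, was at 24.0 ± 0.547 CPM in KO and 26.1 ± 0.751 CPM in control and did not pass (adjusted p = 0.0867). BATF, a partner of JUN proteins and IRF4 in lymphocytes, was at 0.940 and 0.839 CPM in the KO libraries, against 8.07 and 6.31 CPM in the control libraries. It was lower by 8.03-fold (log2 fold change -3.01, SE 0.21, adjusted p = 3.28e-13). JDP2, a bZIP repressor that pairs with JUN proteins, was at 3.16 and 2.30 CPM in KO, against 21.4 and 20.8 CPM in control (log2 fold change -2.95, SE 0.13). Its exons overlap those of the antisense gene AF111167.2, and the counts of the 2 may be mixed. ATF7, a relative of ATF2, was lower by a smaller amount, at 32.5 and 32.4 CPM in KO and 46.9 and 48.3 CPM in control. BATF3, also named after its values were seen, was at 2.79 CPM in KO and 5.92 CPM in control (log2 fold change -1.08, SE 0.17).

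Of 5 MAF genes, bZIP relatives that bind longer sites, 2 were higher, 1 was lower and 2 were not called (median log2 fold change 0.13). The share called was 60%, against 76.2% of all tested genes. MAF, a large MAF factor and a known myeloma oncogene, was at 165 and 166 CPM in the KO libraries, against 40.8 and 42.7 CPM in control, a log2 fold change of 1.98 (SE 0.04, adjusted p = 9.92e-26). MAFF, a small MAF gene that lacks an activation domain, was at 2.98 CPM in KO and 10.2 CPM in control (log2 fold change -1.77, SE 0.15). MAFK, another small MAF gene, rose by 0.40 on the log2 scale (SE 0.10). Of EGR4, WT1, NAB1 and NAB2, 3 were tested and all 3 were lower. EGR4 is among them only through its control counts, so no median is given. The corepressor gene NAB2, itself an EGR target, was at 4.27 and 5.17 CPM in the KO libraries, against 19.7 and 20.2 CPM in control, a log2 fold change of -2.08 (SE 0.11, adjusted p = 9.72e-16). NAB1 was at 13.2 CPM in KO and 25.2 CPM in control (log2 fold change -0.93, SE 0.08). EGR4 had 0 and 5 counts in the KO libraries and 13 and 15 counts in the control libraries, and passed the filter through the control libraries. WT1, a zinc finger relative, had 1 count in each KO library and none in control.

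**Figure D4:**
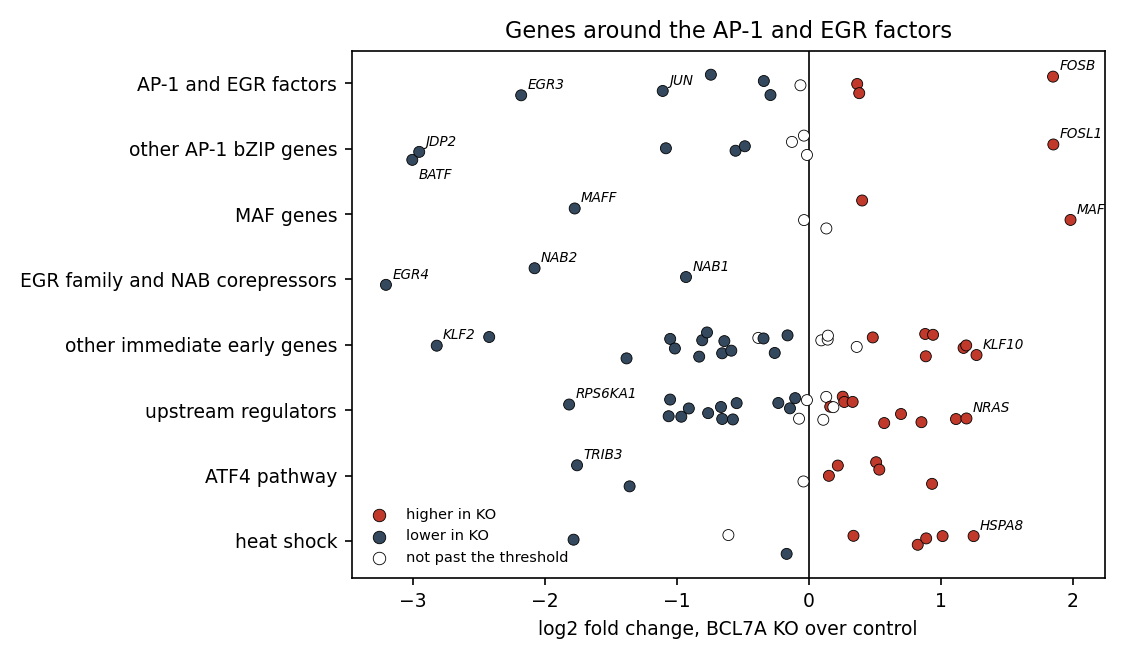
Log2 fold change, BCL7A KO over control, of every tested gene in the AP-1 and EGR group and in 7 related lists, 1 row per list, coloured by direction where the adjusted p was below 0.05 and open where it was not. The other AP-1 bZIP genes reach from BATF and JDP2 near -3 to FOSL1 at 1.85. The NAB and EGR4 points all lie below 0, and EGR4 passed the filter on low counts through the control libraries.

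Other immediate early genes moved both ways. Of 29, 26 were tested, 7 were higher, 14 were lower and 5 were not called. The share called was 80.8%, against 76.2% of all tested genes. The median log2 fold change was -0.30, against -0.06 over all tested genes. By smallest p, MCL1, an anti-apoptotic BCL2 family gene, led at 2575 CPM in KO and 1392 CPM in control (log2 fold change 0.89, SE 0.02). KLF10, a zinc finger repressor gene induced by TGF-beta, was at 106 CPM in KO and 43.9 CPM in control (1.27, SE 0.04). ZFP36, which encodes the mRNA decay factor tristetraprolin, was at 153 CPM in KO and 82.9 CPM in control (0.88, SE 0.04). PPP1R15A, which encodes the phosphatase subunit GADD34, went the other way, at 126 CPM in KO and 221 CPM in control (-0.81, SE 0.03). CYR61 had no counts in any library, and CTGF had 2 counts in each KO library and none in control.

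Of 27 upstream regulators, 9 were higher, 13 were lower and 5 were not called (median log2 fold change -0.07). The share called was 81.5%, against 76.2% of all tested genes. NRAS, a RAS gene often mutated in myeloma, was at 512 CPM in KO and 224 CPM in control (log2 fold change 1.195, SE 0.03). MEF2C, a transcription factor gene of B lineage cells, was at 552 CPM in KO and 255 CPM in control (1.12, SE 0.03). BRAF, a kinase gene below RAS, was at 73.0 CPM in KO and 137 CPM in control (-0.91, SE 0.04). MRTFB, a coactivator gene of SRF, was at 42.5 CPM in KO and 88.1 CPM in control (-1.05, SE 0.04). The listed factors that act at the promoters, named after their values were seen, went both ways. SRF (-0.66, SE 0.05), ELK1 (-0.55, SE 0.06), ELK3 (-1.06, SE 0.05), CREB1 (-0.58, SE 0.05), MRTFA (-0.23, SE 0.09) and MEF2A (-0.10, SE 0.04) were lower, as was MRTFB. MEF2D (0.26, SE 0.02) was higher, as was MEF2C, while ELK4 (-0.01, SE 0.03) and ATF1 (0.13, SE 0.07) did not pass. These are mRNA levels and say nothing of kinase activity.

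Of 12 textbook AP-1 target genes, 7 were tested and all were called, against 76.2% of all tested genes. Of these 7, 3 were higher and 4 were lower. Of the 4, MMP9 and PLAU, both named after their values were seen, had 0 counts in both KO libraries and passed the filter on low counts only through the control libraries, so no median is given. CCND1, which encodes cyclin D1, was at 151 CPM in KO and 538 CPM in control (-1.83, SE 0.03). VIM, which encodes the filament protein vimentin, was at 1029 CPM in KO and 514 CPM in control (1.00, SE 0.02). TIMP1, a protease inhibitor gene, was at 35.3 CPM in KO and 68.3 CPM in control, and the adhesion receptor gene CD44 was at 1016 CPM in KO and 862 CPM in control. Of 7 EGR target genes, 5 were tested and all were called. Of these 5, 3 were higher and 2 were lower, and both lower genes passed the filter through the control libraries. TGFB1 was at 176 CPM in KO and 81.1 CPM in control, PDGFB at 106 CPM in KO and 46.2 CPM in control, and both encode growth factors. PDGFA, another growth factor gene, was without counts in KO and at 0.384 CPM in control. It was at least 9.22-fold lower, with the bound set at 3 counts over the KO group. Of 8 heat shock genes, a class in which some respond to stress, 5 were higher, 2 were lower and 1 was not called (median 0.58). The share called was 87.5%, against 76.2% of all tested genes. HSPA8 was at 2975 CPM in KO and 1251 CPM in control, HSP90AA1 at 1517 CPM in KO and 819 CPM in control, HSPH1 at 97.6 CPM in KO and 48.3 CPM in control, and DNAJB1 at 88.6 CPM in KO and 50.01 CPM in control. The 2 lower genes were HSPA1A, at 0.250 CPM in KO and 0.875 CPM in control (-1.78, SE 0.49), and HSPA1B (-0.17, SE 0.04). HSPA1A rests on few counts, 9 in each KO library and 19 and 17 in the control libraries. HSPA6 was the 1 not called (-0.61, SE 0.51). HSPA1A, HSPA1B and HSPA6 were named after their values were seen. The part of a heat shock response in the results above was not tested.

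Several of these genes lie close together. Over all tested genes, 36.4% were higher and 39.8% were lower, which is the background for the neighbour counts below. FOS, JDP2 and BATF sit on chromosome 14 within 244 kb, with the start of JDP2 149 kb from that of FOS. All 3 were lower in the KO libraries, JDP2 by -2.95 and BATF by -3.01 on the log2 scale. FOS was lower by only -0.34 and passed in 6 of 13 alternative fits. Of 28 tested genes that start within 1 Mb of FOS, 21 were lower and 3 were higher. Their median log2 fold change was -0.76, against -0.22 over chromosome 14. The lower ones include JDP2, BATF and AF111167.2, whose counts may be mixed with those of JDP2. ATF3 and BATF3 start 135 kb apart on chromosome 1, and both were lower. Of 17 tested neighbours of ATF3, however, 10 were higher and 4 were lower (median 0.37, against 0.13 over chromosome 1). JUNB and IER2 start 359 kb apart on chromosome 19. Of 67 tested genes around JUNB, 32 were higher and 22 were lower (median 0.17), against a median of -0.15 over chromosome 19. JUND, 5.49 Mb from JUNB, was lower among 64 neighbours of which 30 were higher and 15 were lower (median 0.12). FOSB was higher among 47 neighbours of which 14 were higher and 21 were lower (median -0.25). EGR1 lies on chromosome 5, where the median was 0.48, and 17 of its 26 tested neighbours were higher (median 0.65). All 5 tested neighbours of EGR2 were lower (median -0.42, against 0.071 over chromosome 10). Of 39 around EGR3, 10 were higher and 24 were lower (median -0.72, against -0.012 over chromosome 8). Of 6 around JUN, also on chromosome 1, 2 were higher and 2 were lower (median 0.0090).

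**Figure D5:**
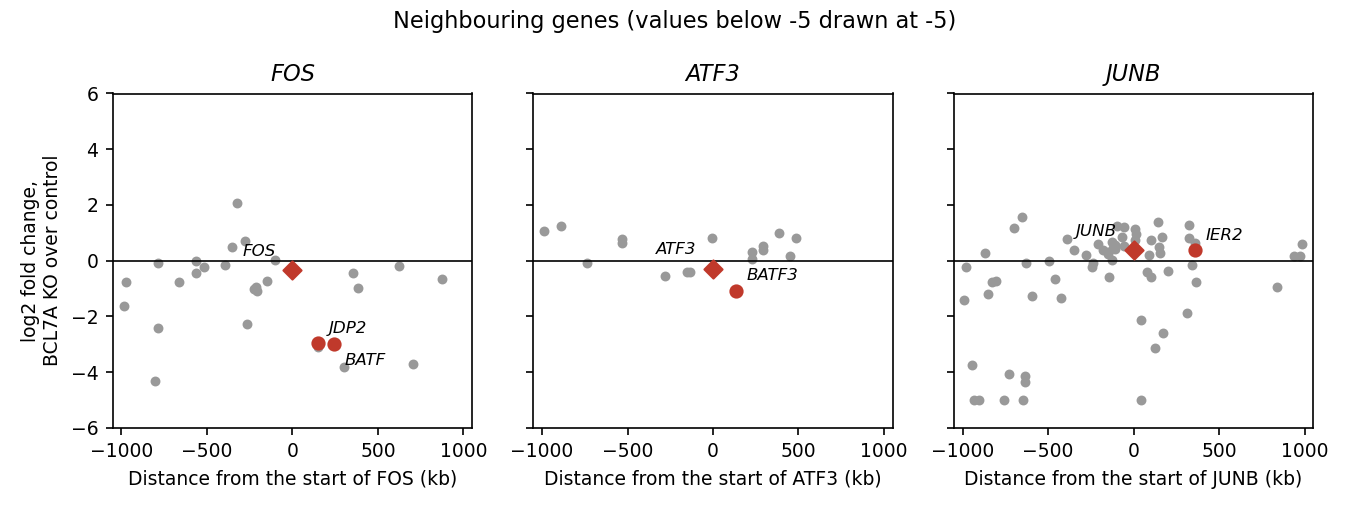
Log2 fold change, BCL7A KO over control, of tested genes that start within 1 Mb of FOS, ATF3 and JUNB, against the distance in kb from that start along the direction of transcription, with values below -5 drawn at -5. The diamond is the named gene, and coloured circles are JDP2 and BATF beside FOS, BATF3 beside ATF3 and IER2 beside JUNB.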

How the data were processed

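Poly(A) RNA-seq was analysed from 2 BCL7A KO and 2 control libraries of NCI-H929 cells. The deposited values are estimated counts for each gene, produced by the authors with Salmon 0.12 and GRCh38 according to the submitters' processing notes; no source used here names the annotation or strand setting. All were whole numbers, so rounding changed none. All 56809 gene names occur in GENCODE 29, which gave positions and lengths. A further 92 ERCC spike-in rows, with at most 5 counts in a library, were left out. Genes passing filterByExpr were tested without covariates in edgeR 4.0.16, using TMM factors, estimateDisp, a robust glmQLFit and glmQLFTest. Benjamini-Hochberg adjustment ran over all 17885 tested genes (threshold 0.05). SE is the absolute log2 fold change over the square root of F. "Higher" and "lower" describe KO against control. The 10 genes and the lists were chosen with earlier results of these data known. From each list, up to 4 genes were named by smallest p. Some list genes are not reported here. Alternatives were other scalings, filters and tools (DESeq2 1.42.0, limma 3.58.1), a threshold of 0.01, a replicate block, each library left out, no robust shrinkage and, for the promoters, other motifs and windows. A fit with KO counts thinned to control depth was also run. Every fit corrected the library totals with scaling factors. Code was tested on simulated data.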

Additional observations from a re-analysis of the deposited data

How the results depend on the processing

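Of 115 values of the 9 tested genes under the alternatives, 105 kept their direction and their side of the threshold. The exceptions were 7 for FOS, 2 for EGR3 and 1 for EGR1. FOS kept its sign but had an adjusted p of 0.165 with no filter, 0.206 with DESeq2, 0.0501 with no robust shrinkage and 0.167 with the KO libraries thinned to control depth. With the replicate block it was 0.0529, and the block left 13287 genes called, against 13629 without it. The libraries share only a number, and deviations of same-numbered libraries were uncorrelated (r = -0.0011 over 14957 genes). EGR1 turned to 0.020 with no filter (adjusted p = 0.906). Over all genes, the alternatives called between 11685 (DESeq2) and 14837 (no filter). The number of the 10 genes called lower, 5 in the report, was 3 with thinned libraries, where EGR3 was not tested, and 3 to 5 with 1 library left out. FOSB, JUN, JUNB, JUND, ATF3 and IER2 passed under all 13 alternative fits. The number of pairs of a promoter window and a motif with at least 1 match, 8 over the 12 windows, was 16 once the added motifs were included, which by construction adds pairs. The median level over the 10 genes in KO moved to 2.40 CPM per kb with the longest transcript, from 2.10, since that length is shorter for some genes. The cause of the other changes was not tested. EGR2 and EGR3 are limited by depth.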
